A study of Bos taurus with 48 samples.

Results

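The tripartite motif (TRIM) genes were followed in bovine endometrium collected 17 days into the cycle. Members were chosen by name alone, as probes whose gene name, or whose symbol at the end of the array description, is TRIM with a number. By that rule 47 of 21475 probes were members, standing for 43 genes. Of these, 34 probes for 32 genes passed the filter on signal and were tested among 14690 probes. TRIM proteins carry a RING finger, B-boxes and a coiled coil, and most are E3 ubiquitin ligases. Many are induced by type I interferon and act in antiviral defence, as restriction factors that meet the virus itself or as regulators that set the strength of signalling from the RNA sensors RIG-I and MDA5. In ruminants the elongating conceptus secretes interferon tau, the signal for maternal recognition of pregnancy, and the endometrium answers with the same set of interferon-stimulated genes that a virus would raise.

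The 22 animals were lactating Holstein Friesian cows of mixed New Zealand and North American ancestry, all with synchronised oestrous cycles. A grade 1 blastocyst was transferred on day 7 to 12 of them, which were pregnant at slaughter on day 17, and 10 cyclic cows received none. Of the pregnant cows 7 carried a large embryo, over 20 cm and over 75 mg, and 5 a small one, under 20 cm and under 40 mg. The titles also label 6 pregnant cows fertile (3 with a large and 3 with a small embryo) and 6 sub-fertile (4 large, 2 small), and what that label rests on is not given in the sources used here.

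From each cow both caruncular endometrium, where the placenta attaches, and glandular intercaruncular endometrium were taken, so the 44 samples come from 22 cows. Every sample carried Cy5 and shared its array with a reference, equal parts of all samples in Cy3, with no dyes swapped, and the values below are log2 ratios of sample to pool. The 48 arrays (4 caruncular samples were hybridised again) had 68.8 to 84.0% of spots well above background, and precision is limited by how many cows each group held. The lowest correlation between arrays was -0.41, with 13 of 1128 pairs below -0.3, and the stated dyes set the direction of every ratio. Cows are named by state and number as in the labels. The intercaruncular library of cow Pregnant_9790 (pregnant, large embryo, sub-fertile) stood apart: over 1000 probes that separate the tissues it correlated with the caruncular pattern at 0.37, against -0.91 to -0.47 in the other 21 intercaruncular libraries. Among caruncular libraries cow Non-Pregnant_1940 (cyclic) was lowest at -0.14, and the median was 0.73. Without either library no count of TRIM genes lost a call between pregnant and cyclic cows. The samples are bulk tissue, in which fewer cells of a type and less RNA per cell cannot be told apart.

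In caruncular endometrium 7 of the 32 TRIM genes tested (21.9%) were up-regulated in pregnant animals by at least 1.5-fold with a limma adjusted p under 0.05, where 5.77% of all probes were. They were TRIM6, TRIM34, TRIM25, TRIM21, TRIM16, TRIM38 and TRIM14. In intercaruncular endometrium 6 of the 32 (18.8%) were up-regulated, all of that list except TRIM38, where 3.99% of all probes were. Down-regulation was called for 1 TRIM gene, TRIM9, in caruncular tissue (3.12%, against 4.21% of all probes) and for 0 in intercaruncular tissue (against 3.25%). By limma at an unadjusted p under 0.05, 10 genes were higher and 7 lower in caruncular tissue, where 5751 of 14690 probes had such a p in either direction. In intercaruncular tissue 10 genes were higher and 6 lower, where 5011 of 14690 probes had such a p. The methods' t-test in Welch's form also called 6 higher and 0 lower there. Over all 32 genes the log2 change had a median of 0.03 for caruncular and 0.20 for intercaruncular tissue, beside -0.04 and -0.01 over all probes. Rises and falls cancel in such a median, so it does not show how far single members moved.

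**Figure D1:**
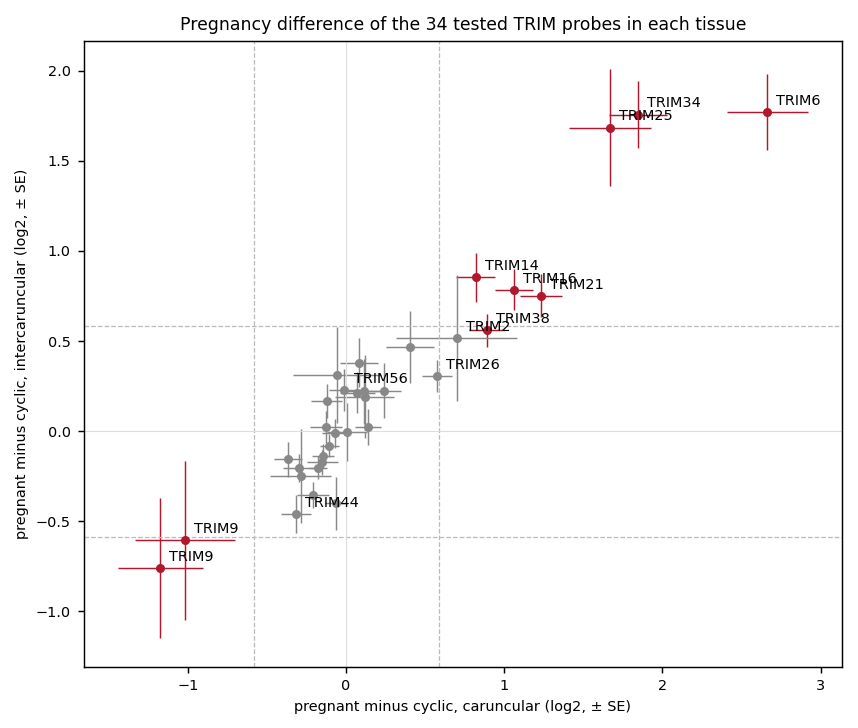
Difference between pregnant (12) and cyclic (10) cows for the 34 tested TRIM probes, caruncular tissue on the x axis and intercaruncular tissue on the y axis, both on the log2 scale. Points are limma estimates, bars are standard errors, dashed lines mark 1.5-fold, and red marks probes called in at least 1 tissue; the 7 up-regulated genes sit at the upper right and the 2 probes of TRIM9 at the lower left.

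Of the lists of TRIM genes by role, drawn up with earlier results of these data known, that of restriction factors had the highest median change. Of 5 genes listed for this role 3 were on the array by the naming rule. All 3 rose in both tissues (median change 1.85 in caruncular and 1.76 in intercaruncular tissue), where 5.77% and 3.99% of all probes rose. TRIM5, TRIM34 and TRIM6 lie close together in that order on chromosome 15 of the RefSeq annotation (assembly ARS-UCD2.0), with LOC788136, LOC516599 and LOC101902757 between TRIM5 and TRIM34 and the olfactory receptor gene OR52B4 between TRIM34 and TRIM6. The probe that the array names TRIM6 was designed on LOC505265, a gene that RefSeq now calls TRIM5, and a further probe that describes TRIM6 was designed on LOC514492, which RefSeq calls TRIM6. By RefSeq the first of them thus lies on TRIM5, and it keeps the array's name TRIM6 throughout this text. Because these genes are close relatives, the 60-base probes are given, in lower case throughout, with the gene each was designed on.
TRIM6 (designed on LOC505265): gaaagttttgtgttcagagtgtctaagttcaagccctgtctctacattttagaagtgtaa
TRIM34 (designed on LOC539820): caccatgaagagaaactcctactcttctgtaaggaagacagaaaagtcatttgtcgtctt
TRIM6 description (designed on LOC514492): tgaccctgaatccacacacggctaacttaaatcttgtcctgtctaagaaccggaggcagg
TRIM5 description (LOC516599): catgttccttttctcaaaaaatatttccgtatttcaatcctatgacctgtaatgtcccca
Among 13 TRIM-related probes with a pregnancy change and a listed sequence, the longest run of bases shared by any of the 78 pairs was 9. The 2 probes on LOC539820 itself shared a run of only 6, so short runs do not show how far the genes differ. Whether a probe also hybridises with a relative's transcript was not tested.

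The probe that the array names TRIM6, on the gene that RefSeq calls TRIM5, had the largest change of the family in caruncular tissue. Its log2 ratio ran from -1.98 to -1.34 (median -1.55) in cyclic and from -0.68 to 2.20 (median 1.03) in pregnant animals. In intercaruncular tissue it ran from -1.84 to -1.16 (median -1.47) in cyclic and from -1.13 to 1.01 (median 0.41) in pregnant animals. All 12 pregnant cows lay above every cyclic cow in each tissue, although the lowest pregnant cow, Pregnant_977, came within 0.03 of the cyclic range in intercaruncular tissue. The change was 2.66 ± 0.26 (SE; 6.34-fold, adjusted p = 8.79e-08) in caruncular and 1.77 ± 0.21 (3.41-fold, adjusted p = 2.96e-06) in intercaruncular endometrium.

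TRIM34, an interferon-induced relative of TRIM5, changed by nearly the same amount in both tissues by its member probe, which passed the filter in 34 of 44 samples. A further probe on this gene, outside the naming rule, passed in 44 and gave 1.77 and 1.43. The values that follow are those of the member probe. Caruncular values ran from -1.60 to -0.98 (median -1.18) in cyclic and from -0.44 to 1.39 (median 0.76) in pregnant animals. Intercaruncular values ran from -1.66 to -1.29 (median -1.53) and from -0.49 to 1.30 (median 0.38). The groups did not overlap in either tissue, and the signal of cyclic cows was low, with a mean of 97.2 units in caruncular and 68.9 in intercaruncular tissue. The change was 1.85 ± 0.18 (3.59-fold, adjusted p = 1.22e-07) and 1.76 ± 0.19 (3.38-fold, adjusted p = 4.85e-07), the latter 1.16 with another background correction (normexp and loess).

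TRIM21, the cytosolic antibody receptor that sends antibody-coated virus to the proteasome, was a well-expressed transcript that moved less. Its caruncular values ran from -0.95 to -0.40 (median -0.79) in cyclic and from -0.37 to 0.98 (median 0.53) in pregnant animals, with all 12 pregnant cows above every cyclic cow. Its intercaruncular values ran from -0.75 to -0.05 (median -0.27) and from -0.16 to 0.74 (median 0.54), and 10 of 12 pregnant cows lay above every cyclic cow. The change was 1.23 ± 0.13 (2.35-fold, adjusted p = 3.93e-07) and 0.75 ± 0.12 (1.68-fold, adjusted p = 0.000139).

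The regulators of RNA sensing and its signalling were more divided. Of 13 genes listed for this role 11 were tested, of which caruncular tissue raised 3 and intercaruncular tissue 2 (median change 0.14 and 0.30), beside the 5.77% and 3.99% of all probes given above. TRIM25, the ligase that activates RIG-I, was low in the endometrium: its probe passed the filter in 23 of 44 samples, where 22 are needed, and was above background in 8 of 10 cyclic and 12 of 12 pregnant caruncular samples, but in 1 of 10 cyclic and 7 of 12 pregnant intercaruncular samples. Caruncular values ran from -1.95 to 0.24 (median -0.60) in cyclic and from 0.13 to 1.99 (median 0.96) in pregnant animals, and 9 of 12 pregnant cows lay above every cyclic cow. Intercaruncular values ran from -2.92 to -1.28 (median -2.43) and from -1.66 to 1.88 (median -0.95), with 8 of 12 above every cyclic cow. The highest of these, 1.88, belonged to the library of cow Pregnant_9790 that stood apart. The change was 1.67 ± 0.26 (3.18-fold, adjusted p = 7.56e-05) in caruncular tissue. In intercaruncular tissue only 1 cyclic sample was above background, so the fitted difference of 1.68 ± 0.32 (adjusted p = 0.000992) is not a measured fold. It was 1.45 without that library and 0.65 (adjusted p = 0.0405) with normexp and loess.

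TRIM14, an adaptor of the mitochondrial antiviral protein MAVS, ran from -1.15 to -0.51 (median -0.69) in cyclic and from -0.37 to 0.65 (median 0.07) in pregnant caruncular tissue. In intercaruncular tissue it ran from -0.98 to -0.47 (median -0.77) and from -0.51 to 0.73 (median 0.19). The caruncular groups were separate, and 1 of 12 pregnant cows fell inside the intercaruncular cyclic range. Its change was 0.82 ± 0.12 (1.77-fold, adjusted p = 4.97e-05) and 0.85 ± 0.14 (1.81-fold, adjusted p = 0.000147).

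TRIM38, a regulator that restrains inflammatory signalling, ran from -0.63 to -0.33 (median -0.47) in cyclic and from -0.13 to 0.91 (median 0.48) in pregnant caruncular tissue. In intercaruncular tissue it ran from -0.66 to -0.24 (median -0.34) and from -0.24 to 0.48 (median 0.28). All 12 pregnant cows lay above the cyclic range in the first and 11 of 12 in the second. It rose by 0.89 ± 0.11 (1.85-fold, adjusted p = 3.25e-06) in caruncular tissue, and its change of 0.56 ± 0.09 (1.47-fold, adjusted p = 0.000245) in intercaruncular tissue was under the fold threshold.

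TRIM26, which regulates the interferon factor IRF3, was also just under that threshold. Its caruncular values ran from -0.42 to -0.09 (median -0.27) in cyclic and from 0.04 to 1.06 (median 0.27) in pregnant animals, so that the groups did not overlap, and the change was 0.57 ± 0.09 (1.49-fold, adjusted p = 0.000139). It passed 1.5-fold with the deposited matrix (0.59) and with another background correction (0.59). In intercaruncular tissue the change was 0.30 (adjusted p = 0.0178). TRIM56, an antiviral ligase often counted among the interferon-induced members, gave -0.01 (adjusted p = 0.95) in caruncular tissue, where its values ran from 0.05 to 0.72 in cyclic and from -0.21 to 0.62 in pregnant animals. In intercaruncular tissue its change was 0.23 (adjusted p = 0.175). Its probe was dim, with a mean signal of 91.5 units, and passed the filter in 25 of 44 samples, where 22 are needed. At that signal the probe did not place TRIM56 with the others, and a response too weak for it to show cannot be told from none.

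Among the other regulators tested, TRIM8 had a change of -0.37 ± 0.09 (adjusted p = 0.00378) and TRIM44 of -0.32 ± 0.09 (adjusted p = 0.0158) in caruncular tissue, both under the fold threshold. In intercaruncular tissue TRIM44 had -0.46 ± 0.11 (adjusted p = 0.00446) and TRIM65, a ligase for MDA5, 0.38 ± 0.13 (adjusted p = 0.0478). TRIM22, a well known interferon-induced member in humans, had no probe by the naming rule. No member probe carried the name TRIM5 either, although the one named TRIM6 lies on the gene that RefSeq calls TRIM5.

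**Figure D2:**
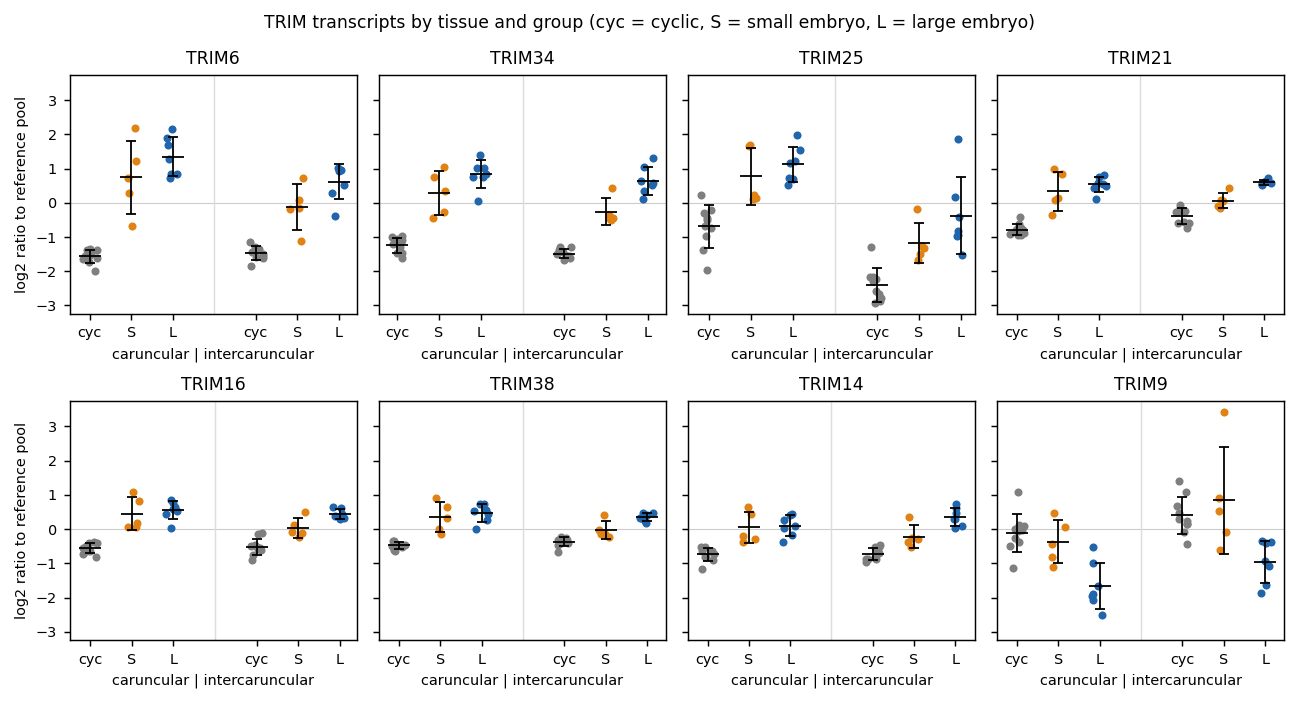
Log2 ratio to the reference pool (y axis) of 8 TRIM genes in every sample, by tissue and by group: 10 cyclic cows (grey), 5 with a small embryo (orange) and 7 with a large embryo (blue). Bars give the mean and SD of each group; TRIM6 and TRIM34 leave the cyclic range in every pregnant cow, whereas TRIM9 falls to -2.52 in a caruncular and reaches 3.43 in an intercaruncular sample.

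Outside the antiviral groups few members moved. TRIM16, an oestrogen-responsive B-box protein without a RING finger that takes part in the clearance of damaged lysosomes, ran from -0.81 to -0.39 (median -0.53) in cyclic and from 0.04 to 1.09 (median 0.57) in pregnant caruncular tissue. In intercaruncular tissue it ran from -0.90 to -0.11 (median -0.54) and from -0.24 to 0.65 (median 0.33). The caruncular groups did not overlap, and 10 of 12 pregnant cows lay above every cyclic cow in intercaruncular tissue. It rose by 1.06 ± 0.12 (2.09-fold, adjusted p = 8.32e-07) and by 0.78 ± 0.11 (1.72-fold, adjusted p = 5.44e-05).

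TRIM9, a ligase best known from neurons, was the only tested member whose fall in pregnant cows also passed the fold threshold. Both of its probes passed in caruncular tissue. Values of the brighter probe ran from -1.13 to 1.08 (median -0.04) in cyclic and from -2.52 to 0.46 (median -1.05) in pregnant animals, so the groups overlapped, with 5 of 12 pregnant cows below every cyclic cow. The change was -1.02 ± 0.32 (adjusted p = 0.0207), and -1.17 ± 0.27 (adjusted p = 0.00275) by the dimmer probe, which was above background in 8 of 12 pregnant samples. In intercaruncular tissue the changes were -0.61 (adjusted p = 0.35) and -0.76 (adjusted p = 0.169) and did not pass. There 1 cow with a small embryo, Pregnant_9246, reached 3.43 against a highest cyclic value of 1.42. The caruncular fall no longer passed with the slide as a random block (-0.87).

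None of the chromatin co-regulators TRIM24, TRIM28 and TRIM33 was called in either tissue, with changes from -0.18 to 0.12 in caruncular and from -0.20 to 0.22 in intercaruncular tissue. TRIM28, which silences genes with KRAB zinc finger proteins, had adjusted p of 0.0284 and 0.0265 at -0.18 and -0.20. The NHL-domain members TRIM2, TRIM3 and TRIM32 also gave no call (-0.21 to 0.70 and -0.35 to 0.52), although TRIM3 at -0.35 in intercaruncular tissue had an adjusted p of 0.00158 and missed the fold threshold alone. The 11 genes that did not pass the filter were TRIM10, TRIM42, TRIM50, TRIM54, TRIM55, TRIM58, TRIM63, TRIM67, TRIM68, TRIM71 and TRIM72, and include all 4 muscle members (TRIM54, TRIM55, TRIM63 and TRIM72). TRIM42 and TRIM58 were above background in 0 of 44 samples, and TRIM68 in 45.5% of them.

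Only 3 of the 12 slides held both states of a tissue, so the pregnancy change was also read within batches. Among 11 pregnant and 9 cyclic caruncular samples of the main scan date the change was 2.57 for TRIM6, 1.75 for TRIM34, 1.49 for TRIM25 and 1.24 for TRIM21. The 2 pregnant and 4 cyclic caruncular samples of another scan date gave 3.35, 2.58, 2.54 and 1.16, and 0.91, 0.82 and 0.73 for TRIM16, TRIM38 and TRIM14. Of these 6 arrays 4 are repeats of samples already counted on the main scan date, so they are not further animals. On the slide with 3 pregnant cows and 1 cyclic cow the caruncular differences were 2.17 for TRIM6, 1.16 for TRIM34, 1.25 for TRIM21 and 0.44 for TRIM25. On an intercaruncular slide with 3 pregnant cows and 1 cyclic cow they were 1.45, 1.65, 1.17 and 0.03, so that TRIM25 lay near no change on that slide. With the slide as a fixed block, which rests on such single slides, 0 TRIM genes were called in caruncular and 1 in intercaruncular tissue, and the brighter TRIM9 probe changed sign to 0.26. The share of all probes called with the slide fixed is not given here, so the lost calls cannot be read as a trait of the TRIM genes.

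Genes that accompany TRIM25 in RIG-I signalling and its ubiquitin chains were read from a list of 25, of which 20 had a probe and 19 were tested. Of these 5 rose and 0 fell in caruncular tissue, and 3 rose and 0 fell in intercaruncular tissue, where 5.77% and 3.99% of all probes rose and 4.21% and 3.25% fell. RIG-I itself, listed as DDX58, rose by 4.08 ± 0.24 and 3.14 ± 0.19, and IFIH1, which encodes MDA5, by 3.27 ± 0.21 and 2.40 ± 0.23. UBE2L6, the conjugating enzyme for ISG15, rose by 1.63 ± 0.16 and 1.33 ± 0.18, and IRF3 and ZC3HAV1 rose by 1.09 and 0.99 in caruncular tissue. The median over the list was 0.14 and 0.12, so the sensors rose while most ubiquitin enzymes and adaptors of the list, such as RNF135 (0.23, adjusted p = 0.167), TRAF3 (0.02, adjusted p = 0.933) and TBK1 (0.13, adjusted p = 0.0782), gave no call in caruncular tissue.

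TRIM proteins that go under other names numbered 7, of which 2 were tested. PML, the founder of nuclear bodies, rose by 2.26 ± 0.17 in caruncular and 1.70 ± 0.18 in intercaruncular tissue. MID1, a microtubule-bound ligase, had -0.33 (adjusted p = 0.00517) and -0.32 (adjusted p = 0.00797), under the fold threshold. A further 26 probes are described as TRIM-like, or lie on a gene that RefSeq names TRIM, without meeting the naming rule, and 12 of them were tested. Of these, chosen after their values were seen, LOC516599 (described as TRIM5) changed by 2.36 and 1.84, LOC515938 (described as PML) by 2.41 and 1.89, a further probe of TRIM34 by 1.77 and 1.43 and the TRIM6 probe on LOC514492 by 1.37 and 1.13. The 5 probes tested on the chromosome 15 cluster thus all lay above 0 in both tissues. Also among the 12 tested, a probe described as STK33, on a gene that RefSeq names TRIM66, was called lower in caruncular tissue. It gave -0.66 there (limma adjusted p = 0.0171) and 0.08 (adjusted p = 0.841) in intercaruncular tissue. The rest of the 12 gave no call.

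Tissue was compared within the reproductive states, in a limma fit that did not pair the tissues of a cow. With the cow as a replicate block the same TRIM genes were called in each state. In cyclic cows 5 TRIM genes (15.6%) were higher in caruncular tissue by the same threshold, against 7.04% of all probes, and 1 (3.12%) was lower, against 5.19%. TRIM25 ran from -1.95 to 0.24 in caruncular and from -2.92 to -1.28 in intercaruncular tissue of cyclic cows and was higher in caruncular tissue in 10 of 10 cows. Since 8 of 10 caruncular but 1 of 10 intercaruncular samples were above background, the fitted difference of 1.70 ± 0.32 (adjusted p = 6.01e-05) is not a measured fold, and it was 0.56 (adjusted p = 0.0466) with normexp and loess. The co-regulator TRIM24 differed by 1.42 ± 0.23 (adjusted p = 7.24e-06) and TRIM59 by 0.80 ± 0.14 (adjusted p = 2.66e-05), each in 9 of 10 cows, and that of TRIM59 was 0.46 with normexp and loess. TRIM4 and TRIM65, ligases of the RNA sensors, were higher by 0.62 and 0.60, in 10 of 10 cows. TRIM15, a focal adhesion protein, was lower in caruncular tissue by -0.87 ± 0.12 (adjusted p = 1.52e-06), in 9 of 10 cows.

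In pregnant cows 4 TRIM genes (12.5%) were higher in caruncular tissue, against 9.06% of all probes, and 1 (3.12%) was lower, against 7.92%. TRIM25 (1.69), TRIM24 (1.35) and TRIM59 (0.82) were again higher, each in 11 of 12 cows. TRIM6 was higher in caruncular tissue by 0.79 ± 0.23 (adjusted p = 0.00422) in pregnant cows, in 11 of 12 of them, but in 1 of 10 cyclic cows. TRIM9 was lower by -0.92 and -0.93 with its 2 probes. Apart from 2 cows, the tissues of a cow were scanned on different dates, so tissue and scan date cannot be told apart. In the cyclic and the pregnant cow whose tissues shared a slide, the difference was 0.63 and -0.34 for TRIM25, -0.70 and -0.26 for TRIM24 and -0.13 and -0.25 for TRIM59. The pregnant one is cow Pregnant_9790, whose intercaruncular library lay with the caruncular ones. With another background correction (normexp and loess) 1 gene in place of 5 was higher in caruncular tissue of cyclic cows.

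Whether pregnancy changed a TRIM gene by a different amount in each tissue was tested as an interaction over the 44 samples. By limma 0 of 32 genes passed, against 0.0204% of all probes, and 6 had an unadjusted p under 0.05, as had 1083 of 14690 probes. The lowest p values were those of TRIM21 (0.48 more in caruncular tissue, adjusted p = 0.483), TRIM6 (0.89, adjusted p = 0.5) and TRIM38 (0.33, adjusted p = 0.589). With the cow as a replicate block, which compares the tissues of the same animal, the difference passed for 1 gene (3.12%, against 1.02% of all probes), TRIM6, at 0.89 ± 0.19 (adjusted p = 0.0278), and that of TRIM21 did not (0.48, adjusted p = 0.0538). Without the intercaruncular library of cow Pregnant_9790 the blocked limma differences were 0.98 (adjusted p = 0.00689) for TRIM6, 0.52 (adjusted p = 0.0263) for TRIM21 and 0.37 (adjusted p = 0.0452) for TRIM38. The share of all probes called without that library is not given here, so the added calls cannot be read as a trait of the TRIM genes.

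Embryo size was compared between the 7 cows with a large and the 5 with a small embryo, in a fit that also held the cyclic cows. Against the cyclic cows, which both comparisons share, 7 TRIM genes (21.9%) were higher in caruncular tissue with a large embryo (6.41% of all probes) and 8 (25%) with a small one (3.34%), the 7 named above and TRIM26. In intercaruncular tissue the same threshold gave 7 (21.9%) with a large embryo (6.23% of all probes) but 2 (6.25%), TRIM34 and TRIM6, with a small one (1.14%). Lower than in cyclic cows with a large embryo were 1 gene (3.12%), TRIM9, in caruncular tissue (6.15% of all probes) and 3 (9.38%), TRIM9, TRIM29 (-0.68) and TRIM44 (-0.60), in intercaruncular tissue (5.6%). With a small embryo limma called 0 lower in caruncular (0.865% of all probes) and 0 in intercaruncular tissue (0.422%), with 3 and 2 genes at an unadjusted p under 0.05. In either direction 3357 and 2437 of all 14690 probes had such a p. The direct comparison of large with small is the test of that difference.

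In intercaruncular tissue 4 TRIM genes (12.5%) were higher with a large embryo at an adjusted p under 0.05, against 1.71% of all probes, and 2 (6.25%) were lower, against 1.8%. In caruncular tissue limma called 0 higher and 0 lower, as it did 0% of all probes in either direction, although 1 gene in each direction and 976 of 14690 probes had an unadjusted p under 0.05. TRIM34 measured -0.35, -0.43, -0.49, 0.43 and -0.46 in cows Pregnant_932, Pregnant_977, Pregnant_3807, Pregnant_3956 and Pregnant_9246 with a small embryo, and 0.11 to 1.30 (median 0.57) with a large one. It was higher by 0.91 ± 0.17 (adjusted p = 0.0114), and 4 of the 5 small-embryo cows lay below every large-embryo cow. A further probe on TRIM34, which passed the filter in 44 samples and does not meet the naming rule, gave 0.32 ± 0.26 (adjusted p = 0.556), so the 2 probes of this gene disagree on embryo size. The probes on LOC516599 (0.57, adjusted p = 0.317) and LOC514492 (0.36, adjusted p = 0.47) did not pass either. TRIM21 measured 0.06, -0.16, 0.09, 0.43 and -0.10 in the same cows and 0.52 to 0.74 (median 0.59) with a large embryo. The groups did not overlap, and the difference was 0.54 ± 0.12 (adjusted p = 0.0208).

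TRIM14 measured -0.26, -0.28, -0.37, 0.34 and -0.51 with a small embryo and 0.02 to 0.73 (median 0.30) with a large one, a difference of 0.58 ± 0.14 (adjusted p = 0.0303). TRIM38 measured -0.13, -0.24, -0.15, 0.42 and -0.03 against 0.18 to 0.48 (median 0.32), a difference of 0.38 ± 0.10 (adjusted p = 0.0434). In each of these 4 genes cow Pregnant_3956 was the highest of the small-embryo cows and lay within the large-embryo range, except in TRIM21. TRIM6 differed by 0.74 ± 0.25 (adjusted p = 0.091), TRIM16 by 0.41 ± 0.13 (adjusted p = 0.09) and TRIM25 by 0.81, and these did not pass.

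The 2 members that were lower with a large embryo are not known for induction by interferon. TRIM9 (brighter probe) measured 0.92, -0.07, 0.52, -0.61 and 3.43 with a small embryo and -1.87 to -0.36 (median -0.94) with a large one. It was lower by -1.79 ± 0.48 (adjusted p = 0.042), its dimmer probe gave -1.50 (adjusted p = 0.0595), and without cow Pregnant_9246 the difference was -1.15 and did not pass. Cow Pregnant_3956, at -0.61, lay inside the large-embryo range. TRIM29, a keratin-associated protein of epithelia, measured 0.07, 0.30, 0.45, 1.19 and 0.86 against -1.48 to 0.50 (median -0.28), a difference of -1.03 ± 0.29 (adjusted p = 0.0495) with overlapping groups. In caruncular tissue TRIM9 also had the lowest p, at -1.30 ± 0.34 (unadjusted p = 0.00102, adjusted p = 0.35), followed by TRIM34 at 0.54 (adjusted p = 0.695) and TRIM6 at 0.60 (adjusted p = 0.806).

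These counts rest on few animals. Leaving out the small-embryo cows Pregnant_932, Pregnant_3807 or Pregnant_9246 in turn left 1 gene higher with a large embryo and 0 lower, leaving out cow Pregnant_977 left 2 and 1, and leaving out cow Pregnant_3956 left 6 and 1. Without the intercaruncular library of cow Pregnant_9790 there were 4 and 3. Among the pregnant cows alone, without the cyclic cows in the fit, 2 were higher and 0 lower. The share of all probes called in each of these refits is not given here. A lost or gained call therefore cannot be read as a trait of the TRIM genes. The effect of size was also compared between the tissues within cows, a contrast chosen after the data were seen. By limma 0 of 32 genes and 0% of probes passed, and 1 gene and 1269 of 14690 probes had an unadjusted p under 0.05. TRIM14 had the lowest p (0.52 more in intercaruncular tissue, adjusted p = 0.575). The size effect in intercaruncular tissue was thus not shown to differ from that in caruncular tissue.

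The fertility label gave no call. By limma 0 of 32 genes passed in caruncular tissue, against 0.00681% of all probes, and 0 in intercaruncular tissue, against 0.0749%, while 11 genes and 1 gene had an unadjusted p under 0.05. Of all 14690 probes, 1889 and 1691 had such a p. TRIM6 ran from 0.73 to 2.20 (median 1.59) in the caruncular tissue of fertile and from -0.68 to 1.70 (median 0.78) in that of sub-fertile cows, a difference of 0.96 ± 0.29 (unadjusted p = 0.00287, adjusted p = 0.204). TRIM28 differed by -0.21 ± 0.07 (adjusted p = 0.208), with all 6 fertile cows below every sub-fertile cow, and TRIM38 by 0.39 ± 0.12 (adjusted p = 0.21). In intercaruncular tissue the lowest p was that of TRIM33 (-0.58 ± 0.22, adjusted p = 0.33), followed by TRIM32 (its dimmer probe, -0.38, adjusted p = 0.486) and TRIM59 (-0.35, adjusted p = 0.512). The brighter TRIM32 probe, from which the gene is read elsewhere, was not among these lowest p, so the place of TRIM32 rests on the dimmer probe alone. Without the intercaruncular library of cow Pregnant_9790, one of the sub-fertile cows, the difference was -0.46 for TRIM33 and -0.13 for TRIM59. The difference of the label's effect between the tissues, also added later, passed in limma for 0 genes and 0% of probes. At an unadjusted p under 0.05 were 9 genes and 2134 of 14690 probes. The lowest p was that of TRIM16 (-0.55 in intercaruncular relative to caruncular tissue, adjusted p = 0.218).

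**Figure D3:**
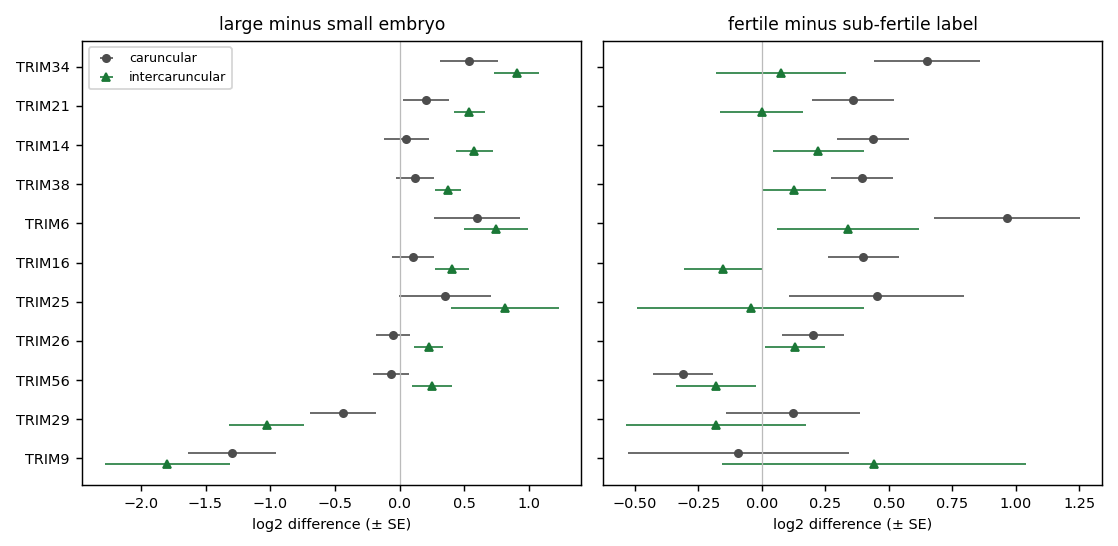
Differences of 11 TRIM genes between large- and small-embryo cows (7 against 5, left) and between cows labelled fertile and sub-fertile (6 against 6, right), on the log2 scale with standard errors, for caruncular (circles) and intercaruncular tissue (triangles). In intercaruncular tissue TRIM34, TRIM21, TRIM14 and TRIM38 lie above 0 and TRIM9 and TRIM29 below it with embryo size, and no gene passed for the fertility label.

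How closely each member followed the interferon response was read against a score, the mean log2 ratio of 26 classical interferon-stimulated genes (of 38 listed) that holds no TRIM gene. In caruncular tissue the score ran from -2.86 to -2.35 (median -2.62) in cyclic and from -0.31 to 1.46 (median 1.10) in pregnant animals, and in intercaruncular tissue from -2.82 to -2.32 (median -2.46) and from -0.86 to 0.73 (median 0.27). With a small embryo the caruncular score was 1.41, -0.31, -0.22, 1.27 and 0.40 in cows Pregnant_932, Pregnant_977, Pregnant_3807, Pregnant_3956 and Pregnant_9246, and the intercaruncular score was -0.35, -0.86, -0.50, 0.65 and -0.68. With a large embryo it ran from 0.45 to 1.46 and from 0.08 to 0.73. The 2 lowest caruncular scores among pregnant cows were those of the 2 sub-fertile cows with a small embryo, and cow Pregnant_3956 had the only small-embryo score inside the large-embryo range in intercaruncular tissue.

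Slopes on this score were fitted among the 12 pregnant cows only, so that the step from cyclic to pregnant could not make them. A gene and the score share a library, and the cows share an array design, so the slopes describe variation between animals. In caruncular tissue 5 TRIM genes (15.6%) rose with the score, against 4.44% of 14661 probes, and 0 fell, against 2.72% (7 at an unadjusted p under 0.05). In intercaruncular tissue 5 (15.6%) rose, against 0.559%, and 0 fell, against 0.239% (2 at an unadjusted p under 0.05). Of all 14661 probes, 3707 in caruncular and 2304 in intercaruncular tissue had such a p, in either direction. TRIM6 rose by 1.17 ± 0.18 per unit of score in caruncular (adjusted p = 0.00321) and by 0.99 ± 0.18 in intercaruncular tissue (adjusted p = 0.0223). TRIM21 had slopes of 0.57 ± 0.09 (adjusted p = 0.00252) and 0.50 ± 0.08 (adjusted p = 0.0112), and TRIM38 of 0.49 ± 0.07 (adjusted p = 0.00183) and 0.41 ± 0.08 (adjusted p = 0.0257).

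TRIM34 followed the score more closely in intercaruncular tissue, at 0.92 ± 0.15 (adjusted p = 0.0121), than its caruncular slope of 0.68 ± 0.17 (adjusted p = 0.0342), though the difference was not tested. TRIM16 passed in caruncular tissue alone (0.46 ± 0.10, adjusted p = 0.0207; 0.38, adjusted p = 0.12 in intercaruncular tissue), and TRIM14 in intercaruncular tissue alone (0.60 ± 0.11, adjusted p = 0.0305; 0.41, adjusted p = 0.0557 in caruncular tissue). TRIM25 did not pass in either, at 0.70 (adjusted p = 0.0727) and 1.16 (adjusted p = 0.152), with the widest scatter of the up-regulated members. Without the 2 cows farthest from the median score 0 genes passed in either tissue. In caruncular tissue these were the sub-fertile small-embryo cows Pregnant_977 and Pregnant_3807, and without them the slope was 1.10 for TRIM6 and 0.30 for TRIM34. In intercaruncular tissue these were cows Pregnant_977 and Pregnant_9246, and without them it was 0.86 for TRIM6 and 1.07 for TRIM34. When the score was added as a covariate to the comparison of embryo sizes, 0 genes were higher with a large embryo, and TRIM34 differed by 0.33 in place of 0.91. That fit was chosen after the data were seen. The score itself differed with embryo size, with intercaruncular means of -0.35 (small) and 0.46 (large), so the covariate also takes out part of the size contrast. Shares of all probes called in that fit and without the 2 cows are not given here. These counts of 0 therefore cannot be read as a trait of the TRIM genes, and whether the score accounts for the size difference was not tested.

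**Figure D4:**
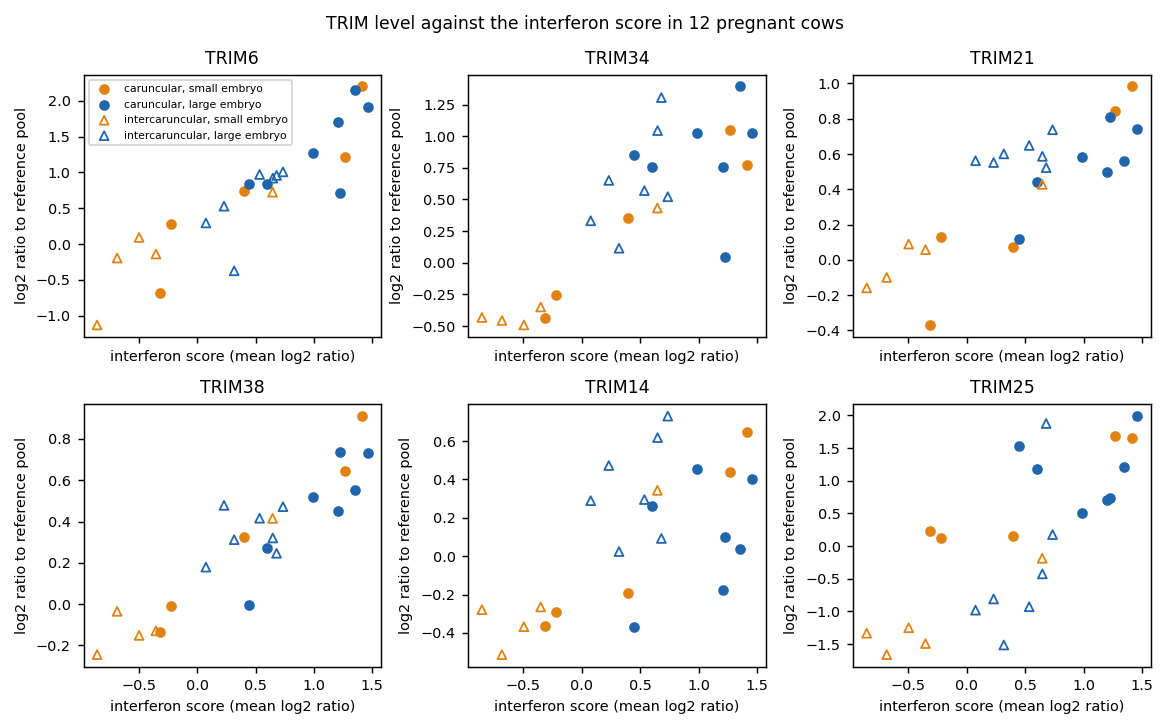
Log2 ratio to the reference pool of 6 TRIM genes (y axis) against the interferon score of the same sample (x axis, mean log2 ratio of 26 genes) in 12 pregnant cows, caruncular tissue as filled circles and intercaruncular tissue as open triangles, orange for a small and blue for a large embryo. TRIM6 rises with the score in both tissues (slopes 1.17 and 0.99), while TRIM25 in intercaruncular tissue stays below 0 in all but 2 cows.

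Markers of cell types were read beside these results. Of 14 leukocyte markers tested, 3 (NKG7, KLRB1 and CSF1R) rose in pregnant caruncular and 2 in intercaruncular tissue, with the mean log2 ratio of the list at -0.62 to 0.04 in cyclic and -0.21 to 0.56 in pregnant caruncular tissue. In intercaruncular tissue it was -0.33 to 0.21 and -0.41 to 0.51, and 2 of the markers were higher with a large embryo. The shares of all probes to read these marker counts against are 5.77% and 3.99% for rises, 4.21% and 3.25% for falls, and 1.71% and 1.8% for higher and lower with a large embryo. Smooth muscle markers fell in 5 of 7 cases in both tissues (median change -0.92 and -1.04), with the list at -0.35 to 1.10 in cyclic and -1.44 to 0.51 in pregnant caruncular tissue. Of 10 conceptus markers on the array 2 were tested and 0 were called, and the pregnancy-associated glycoprotein PAG11 was above background in 0 of 44 samples. The epithelial list rose in 2 and fell in 2 of 10 markers in caruncular tissue and rose in 3 in intercaruncular tissue. The endothelial markers PECAM1 and TEK fell in both tissues, and 3 of 8 stromal markers fell in intercaruncular tissue, where 2 were lower with a large embryo. Of 8 skeletal muscle markers on the array 1, MYLPF, passed the filter and gave no call (-0.02 and 0.04), and MYH1 and ACTA1 were above background in 0 of 44 samples. The part of these shifts in the TRIM results was not tested.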

How the data were processed

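Endometrial RNA of 44 samples was measured on 48 Agilent 60-base 2-colour arrays (12 slides, 3 scan dates). Per the file headers, the deposited spot intensities were extracted by the authors with Agilent Feature Extraction (version 9.5.3.1 in the headers), which subtracted background, marked outlying spots (up to 7.60%) and normalised the dyes by LOWESS; the deposited log10 ratio is that of Cy5 (sample) over Cy3 (pool). The authors' deposited matrix holds log2 ratios in the same direction, uncentred by array, with column medians from -0.03 to 0.06 and an SD of the difference from the scanner ratios of at most 0.09.

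The log10 ratios were taken to log2, averaged over the 2 spots of a probe, centred on each array's median and averaged over repeated arrays (SD of their difference 0.18 to 0.25). Tested probes needed, in 22 or more of the 44 samples, a sample signal of 80 units or more that the scanner files mark as well above background. For a member gene with several probes the brightest of those that meet the naming rule was used, and for other genes the brightest probe. Signal was compared between groups of the same probe only.

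Tests used limma 3.58.1 (lmFit, eBayes) in R 4.3.3, with data.table (1.17.8), and Benjamini-Hochberg adjustment over all probes tested. Pregnancy and tissue were called at 1.5-fold with adjusted p under 0.05, and embryo size, fertility label, slopes and interactions at adjusted p under 0.05 alone. The scripts were tested on simulated data. The tissues of a cow come from the same animal, and their deviations from the group means correlated at 0.11 to 0.87 (median 0.61), over 0.1 in 22 of 22 cows. By the gene number in the array's gene name, 28 of the 47 member probes matched the RefSeq table (assembly ARS-UCD2.0), of which 27 had the same symbol. Probe sequences are those of the array's design as listed by the study.

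Described are members called between pregnant and cyclic cows, a set of known interferon-related members whatever their change, and, for other comparisons, members called or, with none called, the 3 lowest p. The members, gene lists and tests were chosen with earlier results of these data known. Alternatives were no centring, normexp (offset 50) followed by loess, a filter at 33 samples or none, all probes of a gene, the first array alone, slide or scan date as a block, the cow as a block, the deposited matrix, the methods' t-test in Welch's form, covariates and left-out cows. Figures used matplotlib 3.10.9, numpy 2.4.6 and pandas 2.3.3 under Python 3.11.15.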

Additional observations from a re-analysis of the deposited data

Results flagged for a closer look

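Over 54 groups checked, 7 held a sample far from the rest of its group, where chance gives about 1 in 20. In 3 of them the sample was the intercaruncular tissue of cow Pregnant_3956, which carried a small embryo: TRIM34 was 0.43 there against a nearest value of -0.35, TRIM14 was 0.34 against -0.26, and TRIM25 was -0.19 against -1.25. In the intercaruncular tissue of cyclic cow Non-Pregnant_3972, TRIM25 was -1.28 against -2.17 and TRIM29 was 1.28 against 0.54. TRIM29 was 0.83 in the caruncular tissue of cow Pregnant_3807, a small-embryo cow, against -0.31. TRIM38 was -0.66 in the intercaruncular tissue of cyclic cow Non-Pregnant_9960, against -0.46. The pregnancy effect on TRIM6 differed between the tissues by 0.89 with the cow as a replicate block, larger in caruncular tissue.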

How the results depend on the processing

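Direction held in the alternatives run for the 7 up-regulated genes between pregnant and cyclic cows, and their count (7 caruncular, 6 intercaruncular) stayed within 1.5 times except when slides were fitted as fixed blocks (0 and 1) and in caruncular tissue on the scan date that holds both tissues (2, from 2 pregnant against 4 cyclic samples). TRIM9 was no longer called in caruncular tissue (0 genes) on that scan date (-0.99), with the slide as a random block (-0.87) or with the slide fixed, where its value turned to 0.26. TRIM56 turned positive in caruncular tissue with the first array (0.0021), normexp (0.0019), the scan date as a block (0.0063) and the slide fixed (0.15). With the cow as a replicate block 1 gene differed in its pregnancy effect between the tissues, in place of 0, and no other call changed. Higher in caruncular tissue of cyclic cows was 1 gene with normexp, and lower in that of pregnant cows 0 without the filter. For embryo size in intercaruncular tissue, the 4 higher and 2 lower genes became 2 and 0 in pregnant cows only and 0 and 0 with the interferon score as a covariate, the lower genes became 0 with the fertility label as a covariate or the slide fixed, and leaving out single cows gave 1 to 6 higher and 0 to 3 lower. For the slopes on the score, without the 2 cows farthest from its median 0 genes rose in either tissue, without the 2 sub-fertile small-embryo cows 0 rose in caruncular tissue, and with the slide as a random block 2 rose in intercaruncular tissue. Cyclic cows in place of pregnant ones gave 0 caruncular genes and, in intercaruncular tissue, 3 rising and 3 falling, with TRIM38 at -0.0459 in caruncular and TRIM14 at -0.65 in intercaruncular tissue. Among cyclic cows the score spanned only -2.86 to -2.35 in caruncular and -2.82 to -2.32 in intercaruncular tissue. The share of all probes called among them is not given here, so these counts cannot be read as a trait of the TRIM genes. TRIM59 turned to 0.0287 for the fertility label with the slide fixed in intercaruncular tissue. Shares of all probes called in the alternatives of this paragraph are not given here either, so their counts do not single out the TRIM genes. The causes were not tested. Low signal limits TRIM25 in intercaruncular tissue and the reading of TRIM56.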
